A study of Arabidopsis thaliana with 4 samples.

Results

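The genes of camalexin and indole glucosinolate synthesis examined here, 9 of the 33557 loci listed in each library, were compared between seedlings of the Arabidopsis thaliana mutant mos2-2 and of the wild type Col-0. They were chosen by locus: CYP79B2, CYP79B3, CYP71A12, CYP71A13, PAD3, CYP83B1, CYP81F2, PEN2 and MYB51. All 9 were above 0 in every library, and all 9 were among the 19236 genes tested. The mos2-2 plants carried a T-DNA insertion in MOS2, which encodes an RNA-binding protein, in the Col-0 background, and 1 insertion line was used. The Col-0 plants carried wild-type MOS2. Plants of both genotypes were 14 days old and were grown under 16 h of light and 8 h of dark, with no treatment given in the labels. Poly(A) RNA of seedlings was sequenced, with 2 libraries per genotype.

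Camalexin is the main indole phytoalexin of Arabidopsis, an antimicrobial compound made on infection, and indole glucosinolates are sulfur-containing defence compounds stored in healthy tissue. Both start from tryptophan, which the enzymes CYP79B2 and CYP79B3 turn into indole-3-acetaldoxime. From that branch point CYP71A12 and CYP71A13 lead to indole-3-acetonitrile, and PAD3 (CYP71B15) closes the ring of camalexin. CYP83B1 commits the oxime to indole glucosinolates instead, CYP81F2 hydroxylates the indole ring, the thioglucosidase PEN2 breaks the products open during defence, and the transcription factor MYB51 activates genes of this branch.

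Levels are given in FPKM, fragments per kilobase of transcript scaled to the mapped fragments of the library, as deposited by the authors, so they can be compared between genes per length. The libraries summed to between 1350292 and 1522916 FPKM. MOS2 itself had 2.16 and 1.16 FPKM in the mos2-2 libraries, against 50.3 and 36.9 FPKM in the Col-0 libraries. The 11 clock genes examined lay a median of 1.36 log2 units apart between the mos2-2 replicates and 1.13 between the Col-0 replicates, where all genes tested lay 0.30 and 0.37 apart. Of 5 root markers, the root hair gene EXPA7 was listed at 0 in every library and COBL9 reached at most 0.209 FPKM, while SCR (4.21 to 6.01 FPKM), SHR (3.38 to 9.08) and PYK10 (9.78 to 32.0) were present in every library. The 5 summed to 29.0 and 21.5 FPKM in mos2-2, against 33.2 and 44.0 FPKM in Col-0, lower in mos2-2 as most pathway genes below were. PYK10, itself among the pathway genes below, was the largest part of each sum and overlapped between genotypes. SCR (4.21 and 4.88 FPKM in mos2-2, against 6.01 and 5.23 in Col-0) and SHR (3.38 and 6.69 FPKM, against 9.08 and 6.73) were lower without overlap, SCR not with quantile normalization and SHR with neither scaling. The 4 flower organ markers AP3, PI, AG and SEP3 were above 0 everywhere and summed to 5.86 and 31.6 FPKM in mos2-2 replicates 1 and 2, against 44.4 and 16.2 FPKM in Col-0 replicates 1 and 2. The 5 photosynthetic shoot markers summed to 21840 and 37883 FPKM in mos2-2 and to 15692 and 24447 FPKM in Col-0. RBCS1A had 13085 and 15661 FPKM in mos2-2, against 10957 and 8900 in Col-0, and PSBP-1 had 4205 and 5439 FPKM, against 2084 and 3719. Both were higher in mos2-2 without overlap, RBCS1A not with quantile normalization, and the other 3 shoot markers overlapped. Of the seed storage genes, 3 of 4 were listed at 0 in every library. The part of time of day or tissue composition in the differences below was not tested, and in such bulk samples fewer cells of a type cannot be told apart from less RNA per cell.

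Several of the genes are copies of each other, and the sequences show where their values can be mixed. CYP71A12 (AT2G30750) and CYP71A13 (AT2G30770) lie in tandem on the minus strand of chromosome 2, from 13099486 to 13101371 and from 13109909 to 13111988 on TAIR10.1, with 8537 bases between them. Each has 1 annotated transcript of 4 exons and 1494 coding nt, and the pair is identical at 1350 of those bases (90.4%). The longest run without a mismatch is 59 nt, and 10 of 1445 windows of 50 nt (0.692%) are identical. The most and least alike stretches of 60 bases within an exon follow from the RefSeq genome TAIR10.1, with bases that differ between the copies in capitals, because short reads can be assigned to a copy only where such bases occur.
CYP71A12, coding bases 583 to 642, chr2:13100558-13100617, minus strand: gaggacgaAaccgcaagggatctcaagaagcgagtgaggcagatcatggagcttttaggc
CYP71A13, coding bases 583 to 642, chr2:13111148-13111207, minus strand: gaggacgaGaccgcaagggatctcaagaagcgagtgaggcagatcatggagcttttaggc
CYP71A12, coding bases 669 to 728, chr2:13100472-13100531, minus strand: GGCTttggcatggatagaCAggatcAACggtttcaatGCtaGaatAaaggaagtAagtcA
CYP71A13, coding bases 669 to 728, chr2:13111062-13111121, minus strand: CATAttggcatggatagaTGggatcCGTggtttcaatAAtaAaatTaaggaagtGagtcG
The stretch with 1 mismatch gives few reads a mark of their copy, while the stretch with 15 mismatches marks every read that spans it. How reads with several matches were treated is not given in the sources used here, so the division of reads within the pair is uncertain.

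CYP79B2 and CYP79B3 lie on different chromosomes, and their coding sequences are 81.2% identical in the shorter annotated transcripts. Upstream of the annotated gene starts they share a stretch of 44 bases with 2 mismatches, shown because both genes encode the same step. Mismatches are in capitals.
CYP79B2, 99 to 56 bases upstream, chr4:18524943-18524986, plus strand: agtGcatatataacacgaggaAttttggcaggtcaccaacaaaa
CYP79B3, 173 to 130 bases upstream, chr2:9488240-9488283, plus strand: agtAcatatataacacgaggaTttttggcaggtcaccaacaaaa

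The 250 bases upstream of each gene start were also searched for W boxes, the sites of WRKY factors such as the camalexin regulator WRKY33, as TTGACC or TTGACT, and for the G box CACGTG, on both strands. Of the 9 genes 2 held a W box and 0 held a G box in this window, against 28.5% and 6.57% of 26686 protein-coding genes. PAD3, the member furthest apart between genotypes, held none of these letters in the window, and CYP81F2 held 2 W boxes, read here on the opposite strand and in capitals, starting 194 and 109 bases before the gene start.
PAD3, chr3:9887667-9887916, plus strand: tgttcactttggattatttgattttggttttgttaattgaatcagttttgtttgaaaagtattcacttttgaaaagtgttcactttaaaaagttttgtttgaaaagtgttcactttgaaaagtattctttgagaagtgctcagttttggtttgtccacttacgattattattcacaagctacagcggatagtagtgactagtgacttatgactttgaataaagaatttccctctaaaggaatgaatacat
CYP81F2, chr5:23187590-23187839, plus strand: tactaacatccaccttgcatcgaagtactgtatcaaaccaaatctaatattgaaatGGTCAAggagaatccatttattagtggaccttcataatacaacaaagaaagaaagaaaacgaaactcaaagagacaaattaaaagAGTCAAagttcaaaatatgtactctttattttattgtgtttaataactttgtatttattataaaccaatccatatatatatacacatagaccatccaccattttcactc
PEN2 held 1 W box, 82 bases before its start. These matches describe the letters only.

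Across the 9 genes, PAD3, CYP83B1 and MYB51 were lower in both mos2-2 libraries than in both Col-0 libraries, and the other 6 overlapped between genotypes. None passed the test: the limma adjusted p ran from 0.633 to 0.982, at a threshold of 0.05, while 12 of all 19236 genes tested passed (0.0624%), 10 of them higher (0.052%) and 2 lower (0.0104%) in mos2-2. An unadjusted p under 0.05 was found for the same 3 genes, against 7.02% of all genes tested. A lower position without overlap was found for 24.7% of all genes tested and a higher one for 13.1%, so 3 of 9 is not far from this background. Without Col-0 replicate 1 the count lower without overlap was 6 (36.0% of all genes tested then), and without mos2-2 replicate 1 it was 7 (43.3%). It stayed at 3 without Col-0 replicate 2, where 50.4% of all genes tested were lower, and without mos2-2 replicate 2, where 36.9% were. The members' median log2 difference, on the scale log2(FPKM + 1) used for all log2 values, was -0.15, against -0.09 over all genes. Median-ratio and quantile normalization moved the members' median to -0.04 and -0.06 and that of all genes to 0.01 in both cases. The shares of all genes without overlap were then 19.4% lower and 20.05% higher with median ratios, and 18.4% lower and 20.7% higher with quantiles. Beside these shares, 3 of the 9 members were lower and 1, CYP71A13, was higher without overlap in both settings. An exact permutation test of 2 libraries against 2 cannot give a two-sided p below 0.333.

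**Figure D1:**
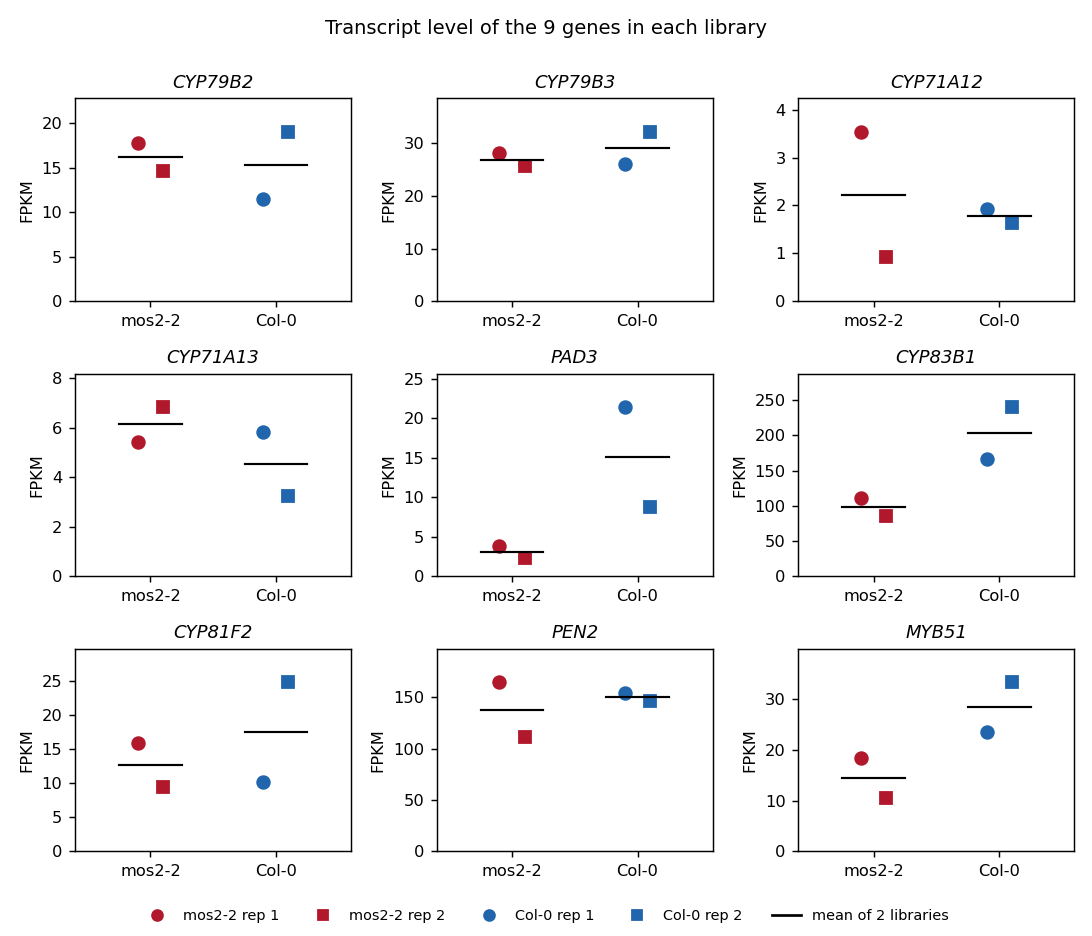
FPKM of each of the 9 genes (vertical axis from 0) in the 2 mos2-2 and 2 Col-0 libraries, 1 panel per gene, with circles for replicate 1, squares for replicate 2 and a line at the mean. PAD3, CYP83B1 and MYB51 have both mos2-2 points below both Col-0 points, while the points of the other 6 genes overlap.

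At the shared entry step the genotypes overlapped. CYP79B2 (AT4G39950, chromosome 4 from 18525042 to 18527602, plus strand, 2 annotated transcripts) had 17.8 and 14.6 FPKM in the mos2-2 libraries, against 11.5 and 19.0 FPKM in the Col-0 libraries. Both mos2-2 values lay between the Col-0 values. CYP79B3 (AT2G22330, chromosome 2 from 9488413 to 9491404, plus strand, 2 annotated transcripts) had 28.1 and 25.8 FPKM in mos2-2, against 26.1 and 32.1 FPKM in Col-0, again with overlap. The log2 difference was 0.12 (95% interval -0.71 to 0.94, limma adjusted p 0.951) for CYP79B2 and -0.10 (-0.74 to 0.54, adjusted p 0.945) for CYP79B3. Differences of any size within these intervals remained possible with 2 libraries per genotype. CYP79B3 was the higher of the pair in every library, 1.58 and 1.77 times CYP79B2 in mos2-2 and 2.26 and 1.69 times in Col-0. The summed level of the pair was 43.2 ± 3.88 FPKM in mos2-2 and 44.4 ± 9.56 FPKM in Col-0 (SD, n = 2 each).

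On the camalexin branch, PAD3 did not overlap between genotypes, while CYP71A12 and CYP71A13 did. PAD3 (AT3G26830, chromosome 3 from 9887917 to 9889791, plus strand, 1 transcript of 2 exons and 1777 nt) had 3.85 and 2.29 FPKM in the mos2-2 libraries, against 21.4 and 8.80 FPKM in the Col-0 libraries. Both mos2-2 libraries were low, and the Col-0 libraries lay well above them but 2.43-fold apart from each other. The mean was 3.07 ± 1.11 FPKM in mos2-2 and 15.1 ± 8.90 FPKM in Col-0 (SD, n = 2 each), 4.91-fold lower in mos2-2. The log2 difference was -1.89 (SE 0.48, 95% interval -3.13 to -0.65), with an unadjusted limma p of 0.0113 and an adjusted p of 0.633. Ordered by unadjusted p, PAD3 ranked 331 among all genes tested. Without Col-0 replicate 1, the library with the highest level, the log2 difference was -1.29, and without Col-0 replicate 2 it was -2.49.

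CYP71A12 was the lowest of the 9 genes in every library. It had 3.53 and 0.918 FPKM in the mos2-2 libraries, against 1.93 and 1.64 FPKM in the Col-0 libraries. The mos2-2 libraries held both the highest and the lowest value, 3.84-fold apart, so no direction can be read (log2 difference 0.08, 95% interval -1.20 to 1.37, limma adjusted p 0.982). From the steps between low FPKM values, these levels correspond to an estimated 34.8 and 9.43 reads in mos2-2 and 11.99 and 16.2 reads in Col-0. Such estimates are rough, since 40.6% to 43.7% of low values lay within 0.1 of a whole number of reads where evenly spread values would give 20%.

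CYP71A13 had 5.45 and 6.83 FPKM in the mos2-2 libraries, against 5.84 and 3.23 FPKM in the Col-0 libraries. Its groups overlapped, with a log2 difference of 0.40 (95% interval -0.46 to 1.26, limma adjusted p 0.825). With median-ratio or quantile scaling both mos2-2 libraries lay above both Col-0 libraries, and the gene did not pass there either. In the RefSeq annotation AT2G30766 on the opposite strand overlaps 330 of the 1494 exonic bases of CYP71A13 (22.1%). AT2G30766 was listed at 350 and 2246 FPKM in mos2-2 and at 477 and 301 FPKM in Col-0, far above CYP71A13, and it was highest in mos2-2 replicate 2, as CYP71A13 was. No strand setting is stated, so reads of the overlap cannot be told apart. The part of AT2G30766 in the level of CYP71A13 was not tested. The sum of CYP71A12 and CYP71A13, which a division of reads within the pair leaves unaltered, was 8.97 and 7.75 FPKM in mos2-2, against 7.77 and 4.88 FPKM in Col-0. It overlapped between genotypes.

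All 4 genes of the indole glucosinolate branch had log2 differences below 0, where 59.4% of all genes tested did. Of these 4, 2 were lower without overlap, where 24.7% of all genes tested were. CYP83B1 (AT4G31500, chromosome 4 from 15273410 to 15275404, minus strand, 1 transcript of 2 exons) had 112 and 86.0 FPKM in the mos2-2 libraries, against 166 and 240 FPKM in the Col-0 libraries. Every mos2-2 value lay below every Col-0 value. The mean was 98.8 ± 18.0 FPKM in mos2-2 and 203 ± 52.3 FPKM in Col-0 (SD, n = 2 each), 2.05-fold lower in mos2-2, with a log2 difference of -1.02 (SE 0.33, 95% interval -1.87 to -0.17), an unadjusted limma p of 0.0275 and an adjusted p of 0.677. An estimated 1148 reads or more lay behind each value, so counting error was small here. The interval reflects the spread between libraries.

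MYB51 (AT1G18570, chromosome 1 from 6389399 to 6391386, plus strand, 1 transcript of 3 exons) had 18.5 and 10.5 FPKM in the mos2-2 libraries, against 23.6 and 33.3 FPKM in the Col-0 libraries. The groups did not overlap, but the nearest libraries, mos2-2 replicate 1 and Col-0 replicate 1, were close. The mean was 14.5 ± 5.65 FPKM in mos2-2 and 28.4 ± 6.88 FPKM in Col-0 (SD, n = 2 each), 1.97-fold lower in mos2-2. The log2 difference was -0.96 (SE 0.36, 95% interval -1.90 to -0.02, limma adjusted p 0.711). Its interval barely leaves out 0. The unadjusted p, 0.0475, was above 0.05 with median ratios (0.0743), quantiles (0.0739), no filter (0.0608), no trend (0.0538) and the replicate number as a block (0.0578).

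CYP81F2 (AT5G57220, chromosome 5 from 23187840 to 23189902, plus strand, 1 transcript of 3 exons) had 15.9 and 9.51 FPKM in the mos2-2 libraries, against 10.2 and 24.8 FPKM in the Col-0 libraries. The Col-0 replicates lay 2.44-fold apart, further than the genotype means, and the groups overlapped (log2 difference -0.35, 95% interval -1.63 to 0.93, limma adjusted p 0.895). PEN2 (AT2G44490, chromosome 2 from 18364652 to 18367835, plus strand, 1 transcript of 11 exons) had 164 and 112 FPKM in mos2-2, against 155 and 146 FPKM in Col-0. The Col-0 libraries were nearly level and lay between the mos2-2 libraries, with a log2 difference of -0.15 (95% interval -0.95 to 0.66, limma adjusted p 0.934).

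**Figure D2:**
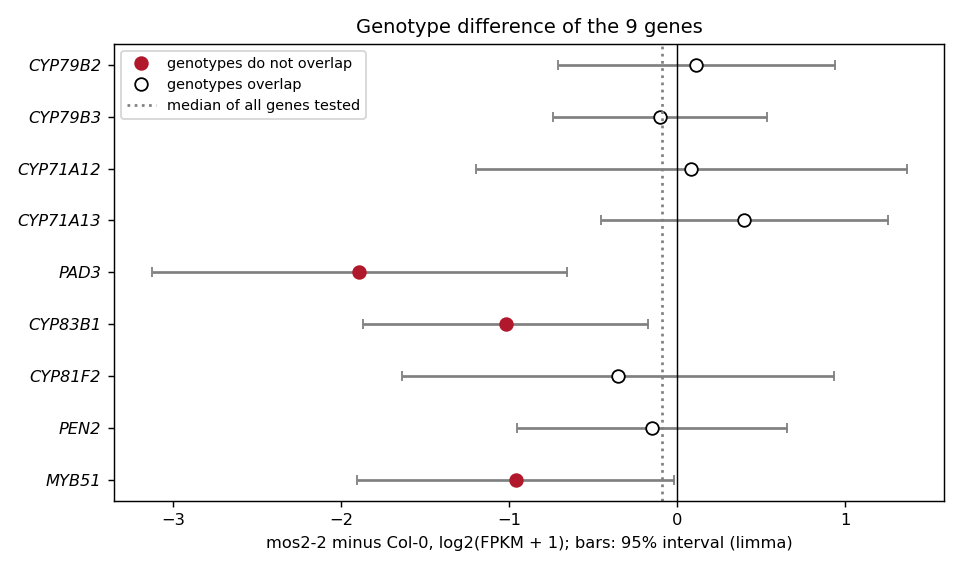
Log2 difference, mos2-2 minus Col-0, of each gene on the log2(FPKM + 1) scale with its 95% limma interval. Filled points mark genes whose genotypes do not overlap, open points those that overlap, and the dotted line is the median of all genes tested, -0.09. The intervals of PAD3, CYP83B1 and MYB51 lie below 0, and the other 6 include it.

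The order of the levels differed at the top and in the middle. In mos2-2, PEN2 (mean 138 FPKM) stood above CYP83B1 (98.8), with the lower PEN2 library and the higher CYP83B1 library both at 112 FPKM. In Col-0, CYP83B1 (203) stood above PEN2 (150) without overlap. CYP79B3 followed at 27.0 FPKM in mos2-2 and at 29.1 FPKM in Col-0, where its libraries overlapped those of MYB51. CYP79B2, MYB51 and CYP81F2 overlapped among themselves in mos2-2, and CYP81F2, CYP79B2 and PAD3 did so in Col-0. CYP71A13, at 6.14 ± 0.978 FPKM, was above PAD3 in both mos2-2 libraries. In Col-0, at 4.54 ± 1.85 FPKM (SD, n = 2 each), it was below PAD3 in both libraries. PAD3 and CYP71A12 overlapped at the bottom in mos2-2.

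On the log2 scale the distance between the mos2-2 replicates exceeded that between the genotype means in 5 of 9 genes, and so did the distance between the Col-0 replicates. Over all genes tested the shares were 54.5% and 60.2%, so 5 of 9 is near the background. The median distance was 0.55 between mos2-2 replicates and 0.53 between Col-0 replicates for the 9 genes, against 0.30 and 0.37 for all genes tested.

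The wider pathway was described with 49 further genes in 6 lists, of which 46 were tested and 0 passed the limma threshold in either direction. At an unadjusted limma p under 0.05 there were 11 lower and 1 higher, against 5.36% and 1.66% of all genes tested. The genotypes did not overlap for 29 genes, with mos2-2 the lower for 26 and the higher for 3, against the 24.7% and 13.1% of all genes given above. The median log2 difference was -0.46, and 39 of 46 genes were below 0, where 59.4% of all genes tested were. With median-ratio scaling 23 were lower and 4 higher without overlap, against 19.4% and 20.05% of all genes tested. With quantile normalization 26 were lower and 4 higher, against 18.4% and 20.7%. In these 2 settings, 38 and 39 genes lay below the median of all genes. The 46 genes come from the same 4 libraries and are not independent. Their lists were chosen with earlier results of these data known.

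Tryptophan synthesis, which feeds both branches, had 8 of 11 genes lower and 1 higher without overlap, against 24.7% and 13.1% of all genes tested. The list's median was -0.51. TSA1, the alpha subunit of tryptophan synthase, had 40.9 and 37.3 FPKM in mos2-2, against 67.6 and 80.5 FPKM in Col-0 (log2 difference -0.90, limma adjusted p 0.633). The replicates of each genotype were close and the genotypes well apart, 1.89-fold. The beta subunit TSB1 had 130 and 135 FPKM in mos2-2, against 176 and 257 FPKM in Col-0, and the indole-3-glycerol phosphate synthase gene IGPS (AT2G04400) had 26.8 and 26.5 FPKM, against 48.6 and 41.0 FPKM. ASA1, anthranilate synthase at the head of the pathway, had 35.4 and 27.9 FPKM in mos2-2, against 43.1 and 47.2 FPKM in Col-0. ASA2 lay the other way, as the 1 gene higher without overlap. It had 16.9 and 16.6 FPKM in mos2-2, against 13.8 and 11.4 FPKM in Col-0, and kept this position with either scaling. With either scaling PAI3 was higher without overlap too. None of these passed. TSB1 has a close copy, TSB2, and the 3 PAI genes are copies of each other, so reads of these genes may have been divided.

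Of the 6 genes that act after CYP83B1 or beside it to build the glucosinolate core, 3 were lower and 1 higher without overlap. The shares over all genes tested were 24.7% and 13.1%. With median ratios 2 were lower and 0 higher, against 19.4% and 20.05% of all genes. With quantiles 4 were lower and 0 higher, against 18.4% and 20.7%. GGP1, lower without overlap at 170 and 180 FPKM in mos2-2, against 213 and 231 FPKM in Col-0, overlapped with median ratios. The sulfotransferase gene SOT16, which makes the last step of the core, had 27.7 and 36.4 FPKM in mos2-2, against 55.7 and 60.8 FPKM in Col-0 (log2 difference -0.85, limma adjusted p 0.661). GSTF10, a glutathione S-transferase, had 488 and 321 FPKM in mos2-2, against 917 and 859 FPKM in Col-0 (log2 difference -1.16, adjusted p 0.654). Both stood apart in the same direction as CYP83B1. GSTF9 overlapped, at 1344 and 848 FPKM in mos2-2 and 1328 and 1980 FPKM in Col-0, but was lower without overlap with quantile normalization. SUR1, the C-S lyase shared with the aliphatic branch, lay the other way, at 80.9 and 99.6 FPKM in mos2-2 and 36.4 and 80.2 FPKM in Col-0, where its nearest libraries almost met, and with either scaling the groups overlapped.

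The 6 genes of indole ring modification, companions of CYP81F2, were all below 0 (median -0.41), where 59.4% of all genes tested were. Lower without overlap were 2 of the 6, not far from the 24.7% of all genes tested. CYP81F3 was low, at 0.929 and 0.736 FPKM in mos2-2 and 1.75 and 1.61 FPKM in Col-0, so it met the filter of 1 FPKM only through Col-0. Among genes averaging 5 FPKM or more, 1 of 3 on this list was lower without overlap, against 23.3% of all genes then. IGMT2, an indole glucosinolate methyltransferase, had 17.9 and 13.5 FPKM in mos2-2, against 20.3 and 22.0 FPKM in Col-0. The close copy IGMT1 overlapped, as did IGMT5.

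Among 8 genes of glucosinolate breakdown and transport, 3 were lower without overlap, against 24.7% of all genes tested, and 5 overlapped. With either scaling 2 were lower and 1, GTR1, was higher without overlap. The shares of all genes were then 19.4% and 20.05% with median ratios, and 18.4% and 20.7% with quantiles. Unscaled, GTR1 overlapped, at 62.6 and 50.7 FPKM in mos2-2 and 56.4 and 38.2 FPKM in Col-0. PEN3, the exporter that acts with PEN2 in defence, had 217 and 156 FPKM in mos2-2, against 220 and 307 FPKM in Col-0, where the nearest libraries were almost level, and with either scaling its groups overlapped. The beta-glucosidase gene BGLU18 had 131 and 189 FPKM in mos2-2, against 244 and 376 FPKM in Col-0 (log2 difference -0.94, limma adjusted p 0.716). The myrosinase gene TGG2 had 411 and 349 FPKM in mos2-2, against 494 and 556 FPKM in Col-0. PYK10, a beta-glucosidase typical of roots, was low, at 21.4 and 9.78 FPKM in mos2-2 and 17.9 and 32.0 FPKM in Col-0, and overlapped.

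The regulators divided. MYB34, a relative of MYB51 that also activates the indole branch, was the only tested pathway gene with an unadjusted limma p under 0.05 and a higher level in mos2-2. It had 5.75 and 8.35 FPKM in the mos2-2 libraries, against 2.47 and 2.78 FPKM in the Col-0 libraries. The mean was 7.05 ± 1.84 FPKM in mos2-2 and 2.62 ± 0.217 FPKM in Col-0 (SD, n = 2 each), with a log2 difference of 1.13 (SE 0.28), an unadjusted p of 0.0106 and an adjusted p of 0.633. MYB34 and MYB51 thus lay in opposite directions, each without overlap and neither past the threshold. The partner factor MYC4 had 4.87 and 6.73 FPKM in mos2-2, against 10.5 and 11.9 FPKM in Col-0 (log2 difference -0.85, limma adjusted p 0.654). MYC3 had 37.2 and 25.6 FPKM in mos2-2, against 57.1 and 50.9 FPKM in Col-0, and OBP2 had 14.1 and 11.4 FPKM, against 20.7 and 15.1 FPKM. MYC2 lay further apart between replicates than between genotypes, at 24.0 and 95.9 FPKM in mos2-2 and 34.0 and 79.6 FPKM in Col-0, and MYB122 was too low to test.

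**Figure D3:**
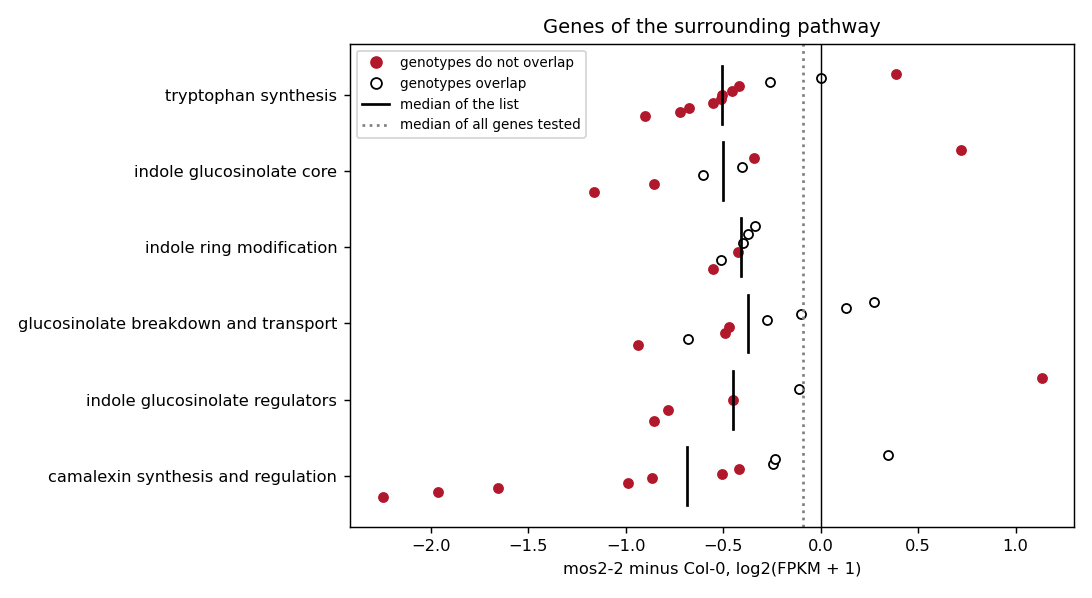
Log2 difference, mos2-2 minus Col-0, on the log2(FPKM + 1) scale for the 46 tested pathway genes in 6 lists. Each point is a gene, filled where the genotypes do not overlap, the short bar is the list's median and the dotted line the median of all genes tested, -0.09. The list medians lie between -0.69 and -0.37, and MYB34 stands furthest to the right at 1.13.

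Camalexin synthesis and its regulation, the list around PAD3, had 7 of 10 tested genes lower without overlap and 0 higher, with a median of -0.69. Over all genes tested the shares were 24.7% lower and 13.1% higher. GSTF6, a glutathione S-transferase implicated in joining glutathione to indole-3-acetonitrile, had 76.0 and 42.2 FPKM in mos2-2, against 309 and 241 FPKM in Col-0. It was 4.65-fold lower in mos2-2, with a log2 difference of -2.25 (SE 0.38), an unadjusted limma p of 0.00231 and an adjusted p of 0.569. GSTF6 has a close copy in its family, GSTF7, with which reads may have been shared. GSTU4, of another class of the same enzymes, had 3.99 and 2.46 FPKM in mos2-2, against 27.5 and 8.21 FPKM in Col-0 (log2 difference -1.96, adjusted p 0.654). FOX1 (AT1G26380), a flavin-dependent oxidoreductase of indole cyanogenic metabolism, had 1.53 and 1.17 FPKM in mos2-2, against 9.998 and 3.95 FPKM in Col-0 (log2 difference -1.66, adjusted p 0.633). MKS1, a partner of the kinase MPK4 and of WRKY33, had 15.6 and 15.9 FPKM in mos2-2, against 33.4 and 26.3 FPKM in Col-0. The regulators on this list divided. The kinase gene MPK6 had 26.1 and 22.4 FPKM in mos2-2, against 35.8 and 29.8 FPKM in Col-0, and the transcription factor gene NAC042 had 0.939 and 0.546 FPKM, against 1.80 and 3.21 FPKM (log2 difference -0.99, limma adjusted p 0.711). Both were lower without overlap, also with either scaling, and neither passed. They were named after their values were seen, as was WRKY33, the activator of PAD3. NAC042 averaged 0.742 FPKM in mos2-2 and 2.50 FPKM in Col-0, so it met the filter of 1 FPKM only through Col-0. Among genes averaging 5 FPKM or more, 5 of 7 on this list were lower without overlap, against 23.3% of all genes then. WRKY33 had 97.8 and 99.6 FPKM in mos2-2, against 43.0 and 139 FPKM in Col-0, and the kinase gene MPK3 had 145 and 89.2 FPKM, against 115 and 156 FPKM. WRKY33 and MPK3 overlapped. The mos2-2 libraries of WRKY33 lay between the Col-0 libraries, and the library lowest in WRKY33, Col-0 replicate 1, was the highest in PAD3.

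The genes most like PAD3 were sought among 14152 genes averaging 5 FPKM or more, by the root mean square distance of log2(FPKM + 1) after subtracting each gene's mean over the 4 libraries. With 4 libraries such a likeness is a description only. The nearest were ARCK1 (distance 0.115), NUDT6 (0.119), RLP34 (0.122), LURP1 (0.136) and AT3G14981 (0.138). All 5 had their highest level in Col-0 replicate 1 and their lowest in mos2-2 replicate 2, as PAD3 did, which the choice by smallest distance largely fixed in advance. LURP1, known for a role in resistance to downy mildew, had 357 and 223 FPKM in mos2-2, against 1274 and 657 FPKM in Col-0, and NUDT6, a Nudix hydrolase, had 2.42 and 1.45 FPKM, against 16.5 and 7.64 FPKM. Of the pathway genes GSTU4 was nearest, at 0.160, followed by FOX1 at 0.168 and GSTF6 at 0.357, and the nearest other member was CYP83B1 at 0.752.

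**Figure D4:**
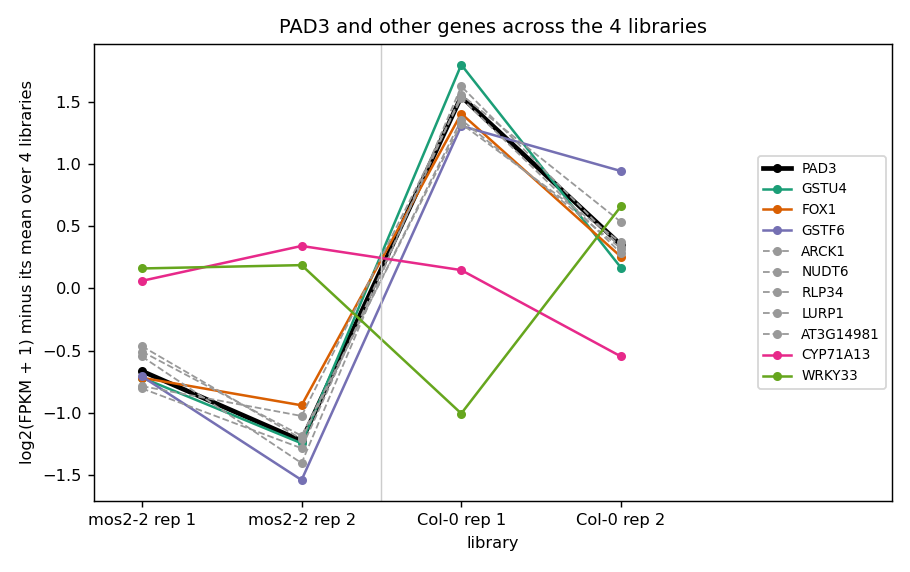
Log2(FPKM + 1) minus its mean over the 4 libraries (vertical axis) for PAD3 in black, its 5 nearest genes dashed in grey, and GSTU4, FOX1, GSTF6, CYP71A13 and WRKY33 in colour, with mos2-2 libraries on the left and Col-0 libraries on the right. GSTU4 and FOX1 follow PAD3 in all 4 libraries, while CYP71A13 and WRKY33 do not.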

How the data were processed

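Per the labels' protocols, poly(A) RNA of 14-day-old seedlings was read on an Illumina GAIIx. The deposited values are FPKM per locus. Per the submitters' processing notes, the authors used TopHat and Cuffdiff with TAIR10. The sources used here do not give versions, annotation, strand setting or the handling of multiply matched reads. From steps between low FPKM values, 1 read in a transcript with 1000 nt of usable length was worth an estimated 0.137 and 0.132 FPKM in mos2-2 replicates 1 and 2 and 0.217 and 0.137 FPKM in Col-0 replicates 1 and 2, so Col-0 replicate 1 was the shallowest. Gene models and sequences came from RefSeq TAIR10.1, in which 32810 loci and all 9 members matched.

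The genotypes were compared with limma 3.58.1 (R 4.3.3) on log2(FPKM + 1). Genes averaging 1 FPKM or more over the 4 libraries entered, 19236 in all. The model held genotype alone, used a mean-variance trend and had 2 residual degrees of freedom. Tests were two-sided, adjusted by Benjamini-Hochberg over all genes (threshold 0.05), and the fit was tested on simulated data. Log2 differences understate the change of low genes, and folds are ratios of mean FPKM. No label says whether libraries of 1 genotype are separate cultures, and p-values therefore measure a spread between libraries that may be technical.

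The members and lists were chosen with earlier results of these data known. All members were named, and of each pathway list up to 4 genes by smallest unadjusted p. For PAD3 the 5 nearest genes were named. Others named in a list, and AT2G30766, were chosen after their values were seen. Alternatives were other pseudocounts, filters and scalings, no trend, a replicate block and each library left out.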

Additional observations from a re-analysis of the deposited data

How the results depend on the processing

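No member or pathway gene passed the threshold in any of the 12 alternatives run; members with an unadjusted limma p under 0.05 numbered 0 to 3. The 12 genes past the threshold among all genes became 4 with a pseudocount of 5, 4 with no filter on low values, 7 with no trend, 6 with the replicate number as a block and 0 with each library left out in turn (819 to 1790 genes at an unadjusted limma p under 0.05). Those fits keep 1 residual degree of freedom and assume that the lone library varies as the other genotype does. The labels state no pairing. Across genes, the deviations of libraries with the same number had r = 0.211, and with the block no member passed and 2 members instead of 3 had an unadjusted limma p under 0.05. With 1 library left out, 4 to 8 members and 34 to 41 pathway genes did not overlap, and 3 to 7 members and 29 to 36 pathway genes lay lower without overlap, where fewer libraries have to stand apart (36.0% to 50.4% of all genes lower, 23.9% to 32.3% higher). Of 33 genes named by rule 26 kept their direction in every alternative that tested them, among them PAD3 (-2.49 to -1.25), CYP83B1 (-1.28 to -0.75), MYB51 (-1.34 to -0.58) and MYB34 (0.65 to 1.37). For genes without overlap, as these are, only the scalings could have reversed the direction, so their kept direction is no support. The other 7 of the 33 genes changed sign. CYP79B3 was at 0.0080 with median-ratio scaling and 0.0033 with quantile normalization. With 1 library left out, the log2 difference ran from -0.22 to 0.45 for CYP79B2, from -0.25 to 0.046 for CYP79B3, from -0.54 to 0.70 for CYP71A12, from -0.95 to 0.25 for CYP81F2, from -0.43 to 0.13 for PEN2, from -0.81 to 0.016 for IGMT1 and from -1.16 to 0.13 for IGMT5. The cause was not tested. Depth limits CYP71A12, with an estimated 9.43 to 34.8 reads per library.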
